A study of Oncorhynchus mykiss with 6 samples.

Results

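miR-126 is a microRNA of blood vessel lining, and miR-221 and miR-222 are a pair of related microRNAs that act on the receptor KIT. They were followed in dorsal skin of rainbow trout (Oncorhynchus mykiss) at 45 days of age. All entries named miR-126, miR-221 or miR-222, whatever their suffix x, y or z, were taken from the authors' deposited table, which gives 8 of 1939 mature miRNAs: 2 of miR-126, 3 of miR-221 and 3 of miR-222. Small RNA was sequenced from 3 libraries of wild-type, black-skinned fish (WR) and 3 of a yellow mutant with yellow skin (YR), and the series asks which miRNAs differ between these skins. No label names the mutated gene, and none says whether each library of a group had its own fish, so the spread behind each p-value is that of these samples and may be technical.

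miRNAs are short RNAs that bind messenger RNAs mainly through their seed, bases 2 to 8, and lower their translation or stability. miR-126 is encoded in an intron of EGFL7, a gene of endothelial cells, and in mouse and zebrafish it keeps vessels intact by lowering SPRED1 and PIK3R2, inhibitors of the signal from VEGF. miR-221 and miR-222 are transcribed together and share their seed. In human endothelial and melanoma cells they lower KIT, the receptor for stem cell factor, and in zebrafish miR-221 acts in the tip cells of growing vessels. Kita, a KIT receptor of zebrafish, is needed for melanocytes to migrate and survive.

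The sequences of all 8 entries are shown from the authors' deposited table, 5′ to 3′, with the seed in capitals, because the seed separates the entries that can share targets and because the z entries are nearly the same molecules as the y entries.
miR-126-x: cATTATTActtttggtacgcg
miR-126-y: tCGTACCGtgagtaataatgca
miR-221-x: aCCTGGCAtacaatgtagattt
miR-221-y: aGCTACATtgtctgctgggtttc
miR-221-z: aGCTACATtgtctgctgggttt
miR-222-x: tGCTCAGTaggcagtgtagatcc
miR-222-y: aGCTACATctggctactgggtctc
miR-222-z: aGCTACATctggctactgggtctcga

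These 8 entries held 5 distinct seeds. The y and z entries of miR-221 and miR-222 shared 1 seed, GCTACAT, which no other entry of the table had. miR-221-z was miR-221-y without its last base, with 22 of its 22 bases shared from the 5′ end, and miR-222-z was miR-222-y with 2 bases added at the 3′ end. miR-221-y and miR-222-y shared their first 8 bases and stood 4 single-base edits apart over lengths of 23 and 24 bases. When x and y sequences of each name were folded onto each other, 18 base pairs formed for miR-126, 17 for miR-221 and 17 for miR-222. The 2 arms of a hairpin pair with each other, but no unrelated sequences were folded for comparison. These numbers alone therefore do not show that x and y come from 1 hairpin, and they are called arms here by their names. No sequence of the 8 was listed under another name. Apart from the pairs of y and z entries, no entry of the table was within 2 edits of any of them. The seed of miR-222-x was shared by 1 predicted miRNA, 8 edits away and scarce at a mean of 0.621 TPM, with the sequence below.
predicted miRNA with the seed of miR-222-x: tGCTCAGTatatgtggacacct

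Levels are deposited TPM, counts scaled to library size by the authors, where 1 read was worth 0.101 to 0.127 TPM. Library totals were 8245698 to 10336991 counts. WR replicate 1 stood apart: names of an imprinted miRNA cluster of placental mammals took 38046 counts there and 738 to 1319 in the other 5 libraries, and miR-143 and miR-145, of smooth muscle and pericytes, summed to 22450 TPM there and to 6751 to 11890 elsewhere. Skin miRNAs were abundant in every library, with miR-200, miR-203 and miR-205 of epidermis at 78700 to 84240 TPM in sum in WR and 63520 to 75080 TPM in YR, and miR-204 and miR-211 of pigment cells at 65210 to 87210 TPM. Differences were tested with edgeR's quasi-likelihood test after TMM scaling, which corrects for abundant miRNAs taking up reads, and with p-values adjusted over all 834 miRNAs that averaged 1 TPM or more. Over these 834, 5.28% were called at an adjusted p under 0.05, 2.16% as higher and 3.12% as lower in YR. Some of the 834 repeat a sequence, and the shares given here and below count each repeat. With 1 entry per distinct sequence 691 were tested, of which 3 were called as higher and 18 as lower. Of the 8 entries 7 were tested and 0 were called by edgeR. At an unadjusted p under 0.05 there was 1, against 21.7% of all tested, and DESeq2 and limma called 0 as well. Values and intervals are given for each. In whole skin, fewer cells of a type and less RNA per cell cannot be told apart.

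miR-126-y, the 3p arm that guides silencing, was the most abundant of the 8, with 75.8% of their 539096 counts and rank 22 of the whole table by mean level. Its level was 6983, 6946 and 7044 TPM in WR replicates 1, 2 and 3, and 9570, 8716 and 6706 TPM in YR replicates 1, 2 and 3. The WR libraries were nearly equal, the yellow libraries were spread, and YR replicate 3 fell below every WR library, so that the groups overlapped. The group means (SD, n = 3 each) were 6991 ± 49.5 TPM for WR against 8331 ± 1470 for YR. The SD of the WR libraries was 0.708% of their mean on this scale, but this closeness was lost after TMM scaling, which put them at 5556, 6115 and 6849 CPM (scaled counts). On that scale the YR libraries stood at 8916, 9119 and 7671, all above WR, as 17.6% of all tested miRNAs did. The fold change was 1.39 (95% interval 1.13 to 1.71; log2 fold change 0.47, SE 0.12), and it missed the threshold (edgeR adjusted p = 0.0919). Without WR replicate 1 the log2 fold change was 0.26 (edgeR adjusted p = 0.216). With library totals alone in place of TMM it was 0.25, where the median of all tested miRNAs moved from -0.03 to -0.26. miR-126-y stood 0.50 and 0.51 above the median miRNA with and without TMM. A change of scaling moves all log2 fold changes nearly alike, so these values lie close by construction and do not show stability. The distance was 0.28 without WR replicate 1 and 0.59 without WR replicate 3. It was 0.39 when only miRNAs averaging 10 TPM or more were tested. The authors' deposited table gives a log2 fold change of 0.253 with an adjusted p of 0.799.

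miR-126-x, the 5p arm, which in vertebrates is also loaded into silencing complexes, was at 675.9, 527.0 and 332.3 TPM in WR and at 640.4, 469.2 and 354.4 TPM in YR. Replicate 3 was the lowest and replicate 1 the highest in both groups, and the groups overlapped over nearly their whole range. The group means (SD, n = 3 each) were 512 ± 172 TPM for WR against 488 ± 144 for YR. The log2 fold change was 0.17 (95% interval -0.40 to 0.75; edgeR adjusted p = 0.643), and its sign was negative with library totals alone, at -0.066. The interval therefore spans a fall to 0.758-fold and a rise to 1.68-fold.

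The 2 arms of miR-126 did not keep a constant proportion. There were 10.3, 13.2 and 21.2 reads of miR-126-y per read of miR-126-x in WR, and 14.9, 18.6 and 18.9 in YR. The ratio varied 2.05-fold over the 6 libraries, with both extremes in WR. On the log2 scale it averaged 3.83 ± 0.53 (WR) and 4.12 ± 0.19 (YR; SD, n = 3 each), a difference within the spread of replicates (2-sided exact permutation p = 0.5; adjusted over 6 ratios between entries 0.72). With 3 libraries against 3 this exact test cannot go below p = 0.1.

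**Figure D1:**
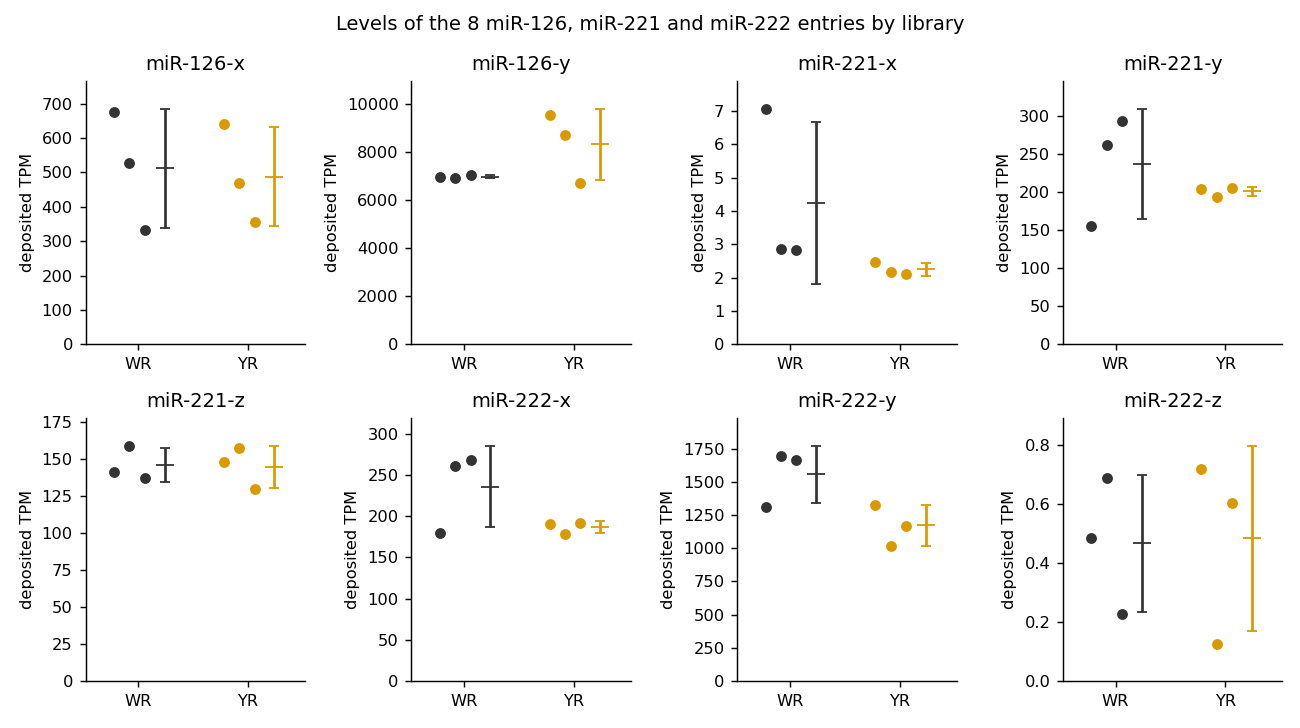
Deposited TPM (vertical axes, each from 0) of each entry, with 1 point per library, replicates 1 to 3 from left to right, and a mean with SD bars beside each group of 3. miR-126-y lies at 6706 to 9570 TPM and miR-222-y at 1019 to 1695 TPM; WR replicate 1 is the lowest WR library for miR-221-y, miR-222-x and miR-222-y and the highest of all 6 for miR-221-x.

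miR-222-y, the 3p arm with the seed of miR-221, came second among the 8 with 13.5% of their counts, and ranked 48 in the table. It was at 1312, 1695 and 1666 TPM in WR and at 1328, 1019 and 1170 TPM in YR. WR replicates 2 and 3 stood above all YR libraries, whereas WR replicate 1 lay below YR replicate 1, so the groups overlapped. WR averaged 1557 ± 213 TPM and YR 1172 ± 155 TPM (SD, n = 3 each). After TMM scaling the fold change was 0.876 (95% interval 0.633 to 1.21; log2 fold change -0.19, SE 0.19; edgeR adjusted p = 0.543). The authors' deposited table gives a log2 fold change of -0.41 and an adjusted p of 0.963.

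Without WR replicate 1, the library that stood apart, miR-222-y fell to 0.705-fold in YR (log2 fold change -0.50, SE 0.12; edgeR adjusted p = 0.0309). In that setting 14.1% of all tested miRNAs were called and 10.4% as lower in YR, so the background was larger too. miR-222-x also fell there, to 0.715-fold (log2 fold change -0.48; edgeR adjusted p = 0.0452). miR-221-y gave 0.732-fold and missed the threshold (log2 fold change -0.45; edgeR adjusted p = 0.0698). With the imprinted-cluster names left out and all 6 libraries kept, log2 fold changes were -0.30 (miR-222-y), -0.23 (miR-222-x) and -0.14 (miR-221-y). The edgeR adjusted p were 0.355, 0.548 and 0.781. What part the imprinted-cluster and smooth muscle names of WR replicate 1 have in the values without that library was not tested. Leaving out any other library gave no call of these entries, and without WR replicate 3 miR-222-y had a log2 fold change of -0.063.

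miR-222-x, the 5p arm of miR-222, was at 179.4, 261.0 and 268.1 TPM in WR and at 190.9, 178.1 and 191.9 TPM in YR. On this scale the yellow libraries were close together and WR replicate 1 lay among them, while the other WR libraries were above. After TMM scaling WR replicate 1, at 143 CPM, lay below all YR libraries, at 178, 186 and 220 CPM. WR replicates 2 and 3, at 230 and 261 CPM, stayed above them. WR averaged 236 ± 49.3 TPM and YR 187 ± 7.70 TPM (SD, n = 3 each), with a log2 fold change of -0.12 after TMM scaling (95% interval -0.71 to 0.48; edgeR adjusted p = 0.777). The 3p arm outnumbered it 5.72- to 7.31-fold in every library, a much steadier proportion than between the arms of miR-126.

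miR-221-y, the 3p arm of miR-221, was at 155.3, 261.2 and 292.8 TPM in WR and at 203.5, 193.8 and 204.5 TPM in YR. On this scale the 3 yellow libraries lay between WR replicate 1 and the other WR libraries. WR averaged 236 ± 72.0 and YR 201 ± 5.89 TPM (SD, n = 3 each), so that the SD was 30.5% of the mean in WR and 2.94% in YR. After TMM scaling the WR libraries stood at 124, 230 and 285 CPM and the YR libraries at 190, 203 and 234. There the YR libraries were less close together, and YR replicate 3 lay above WR replicate 2. The log2 fold change was -0.027 (95% interval -0.77 to 0.72; edgeR adjusted p = 0.957), a value whose sign turned with upper-quartile scaling (0.016).

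miR-221-z, the form 1 base shorter, did not follow it. It was at 141.5, 158.8 and 137.5 TPM in WR and at 147.8, 157.2 and 129.5 TPM in YR, with the groups overlapping throughout. WR averaged 146 ± 11.3 and YR 145 ± 14.1 TPM (SD, n = 3 each), and the log2 fold change was 0.22 after TMM scaling (95% interval -0.14 to 0.59; edgeR adjusted p = 0.392), and using only library totals it was -0.0093. The longer form outnumbered the shorter 1.10-, 1.65- and 2.13-fold in WR and 1.38-, 1.23- and 1.58-fold in YR. This ratio thus varied 1.94-fold between libraries, although both sequences have the same seed, and did not separate the groups (2-sided exact permutation p = 0.6; adjusted over 6 ratios 0.72). The sources used here do not say how reads that match both names were counted.

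miR-221-x, the 5p arm of miR-221, was scarce, with 58, 25 and 25 reads in WR and 24, 17 and 21 in YR. Those reads make 7.05, 2.87 and 2.83 TPM in WR and 2.47, 2.16 and 2.11 TPM in YR. WR replicate 1 was more than all others by a wide margin, and the other two WR libraries were just above YR. The groups did not overlap, as for 19.7% of all tested miRNAs in this direction on the TPM scale. WR averaged 4.25 ± 2.43 and YR 2.25 ± 0.192 TPM (SD, n = 3 each), and the log2 fold change of -0.64 missed the threshold (95% interval -1.55 to 0.27; edgeR adjusted p = 0.344). It was -0.32 without WR replicate 1. miR-222-z, the form with 2 added bases, had 4, 6 and 2 reads in WR and 7, 1 and 6 in YR and was too scarce to be tested. Its 12 WR reads (95% Poisson interval 6.2 to 21.0) and 14 YR reads (7.65 to 23.5) show no difference detectable at this depth, with intervals that cover counting error only.

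**Figure D2:**
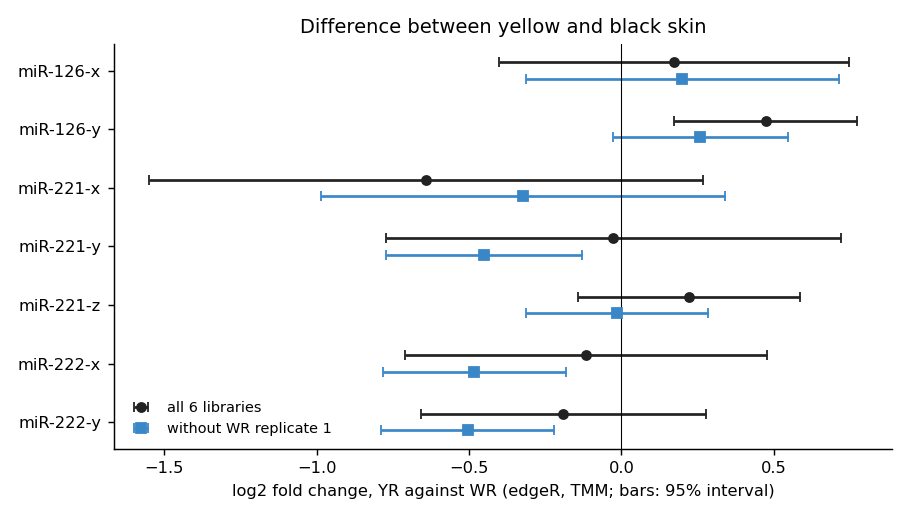
Log2 fold change of YR against WR (horizontal axis) for the 7 tested entries from edgeR with TMM scaling, with all 6 libraries (circles) and without WR replicate 1 (squares), and bars for 95% intervals. Without that library miR-222-y, miR-222-x and miR-221-y move to between -0.45 and -0.50, while miR-126-y moves from 0.47 to 0.26.

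By mean level over the 6 libraries the order was miR-126-y, miR-222-y, miR-126-x, miR-221-y, miR-222-x, miR-221-z, miR-221-x and miR-222-z. miR-221-y and miR-222-x, neighbours in this order, did not differ beyond their spread, since their ratio was 0.916 to 1.16 over the 6 libraries. In the yellow libraries miR-222-y exceeded miR-126-x in all 3, as it did in the black ones. These are read numbers of molecules of 21 to 26 bases, and capture by ligation can differ between sequences.

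The ratio of miR-126-y to miR-222-y needs no library scaling, and it did not overlap between the groups. There were 5.32, 4.10 and 4.23 reads of miR-126-y per read of miR-222-y in WR and 7.21, 8.55 and 5.73 in YR. Every yellow library was above every black one, WR replicate 1 included. On the log2 scale the ratio averaged 2.18 ± 0.21 (WR) and 2.82 ± 0.29 (YR; SD, n = 3 each), a 1.56-fold difference (2-sided exact permutation p = 0.1, as low as 3 against 3 can give). Without single libraries the difference of log2 ratios ran from 0.51 to 0.80. Of the other 833 tested miRNAs, 19.3% had a ratio to miR-222-y that was higher in every YR than in every WR library, miR-126-y among them. A ratio to miR-126-y that was lower in every YR library was found for 27.6%. The ratio does not say which of both miRNAs differed.

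Ratios of these miRNAs to summed counts of 9 lists of other miRNAs (vascular, KIT, smooth muscle, red blood cell, white blood cell, pigment cell, epidermis, skeletal muscle and imprinted-cluster names), 18 ratios in all, placed them against other cell types. miR-126-y was higher in YR against all 9 lists, by log2 differences of 0.22 to 0.50 against all but the imprinted-cluster names, which WR replicate 1 dominates. Against the epidermis list its groups did not overlap, with a difference of 0.50 on the log2 scale (2-sided exact permutation p = 0.1; adjusted over 18 ratios 0.554). The same held for 18.3% of the 825 tested miRNAs outside that list. In deposited TPM the sum of the epidermis list was itself lower in every YR library, and it was not compared after TMM scaling. miR-222-y was lower in YR against 8 of the 9 lists, and the exception was the imprinted-cluster names. Against the vascular list its groups did not overlap, at a log2 difference of -0.37 (exact p = 0.1; adjusted 0.554), as for 16.7% of the 815 tested miRNAs outside that list. Most of the vascular sum came from miR-10-x and miR-27-y, with WR means of 48507 and 45164 TPM, so this is mainly a ratio to them. No ratio of the 18 passed, which this design does not allow. The 9 ratios of each miRNA share their numerator and the same 6 libraries, so they are not separate tests. How many other miRNAs were higher or lower against as many lists was not counted. Without WR replicate 1 the ratio of miR-126-y to the smooth muscle list had a log2 difference of -0.06 and that to the KIT list of -0.037, and the ratio of miR-222-y to the imprinted-cluster names turned to -0.55. Without WR replicate 3 the ratios of miR-222-y to the smooth muscle and red blood cell lists turned to 0.22 and 0.13. The smooth muscle sum came mostly from miR-143-y, so ratios to that list are mainly ratios to miR-143-y.

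**Figure D3:**
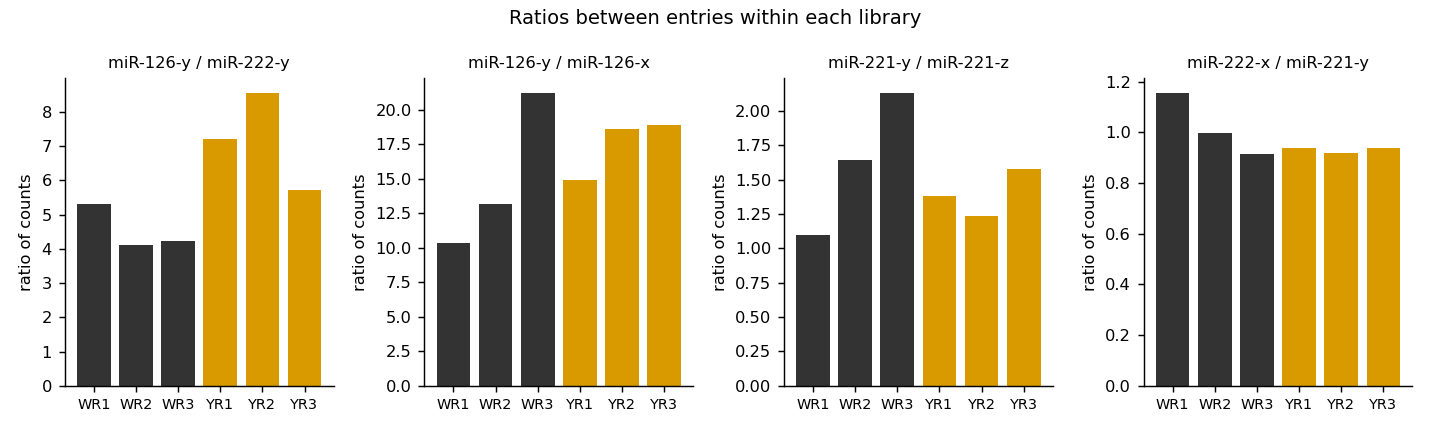
Ratios of counts within each library (vertical axes, from 0) for 4 pairs of entries, WR libraries in dark grey and YR in yellow. The ratio of miR-126-y to miR-222-y is at 4.10 to 5.32 in WR and 5.73 to 8.55 in YR, the other 3 ratios overlap between the groups, and miR-222-x to miR-221-y stays between 0.916 and 1.16.

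Over the 6 libraries the entries fell into unlike patterns, compared as root mean square (RMS) differences of log2 TMM-scaled CPM, each centred on the entry's own mean. miR-222-x was close to miR-222-y (RMS 0.118) and to miR-221-y (0.117), and miR-221-y to miR-222-y (0.22): these 3 were lowest in WR replicate 1 and highest in WR replicate 3. miR-126-x and miR-126-y, 2 arms by their names, were 0.354 apart, and miR-221-x was 0.754 from miR-221-y. All 7 share the same 6 libraries and their scaling. Against the 255 known miRNAs of another sequence with a mean of at least 10 TPM, the median RMS was 0.359 for miR-126-y and 0.377 for miR-222-y.

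**Figure D4:**
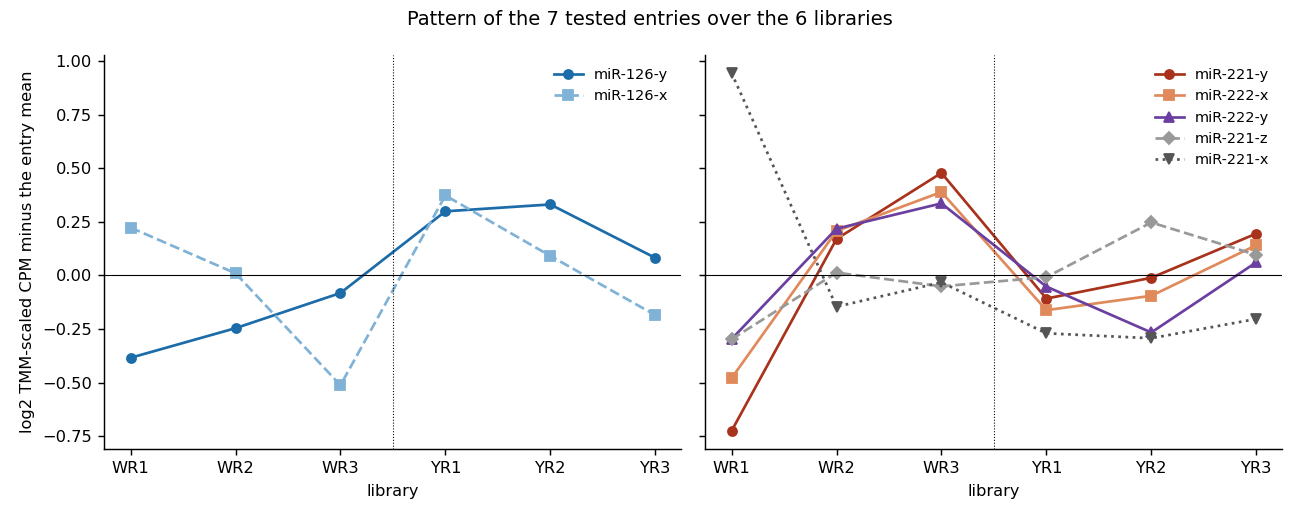
Log2 TMM-scaled CPM minus the entry's mean (vertical axis) in each library (horizontal axis), for miR-126 on the left and miR-221 and miR-222 on the right. Lines join the values of 1 entry and stand for no order of libraries; miR-221-y, miR-222-x and miR-222-y run together from -0.73 to 0.48, and miR-221-x is at 0.94 in WR replicate 1.

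The known miRNAs with the pattern most like that of miR-126-y were miR-26-x (RMS 0.102), miR-20-y (0.113) and miR-1388-x (0.115). For miR-126-x they were miR-2188-y (0.135), miR-2188-x (0.154) and miR-210-y (0.164), the last a miRNA that rises in low oxygen in mammals. For miR-222-y they were miR-200-z (0.0769), miR-462-x (0.0852) and miR-200-y (0.0921), of which the miR-200 entries are epithelial and miR-462 is a fish miRNA linked to interferon. The epidermis list had 9 tested entries, with 0 called, 6 negative and a median log2 fold change of -0.24. It split by name: all entries of miR-200 and miR-203 were negative and all of miR-205 positive. miR-205-x, the most abundant of the list, was at 0.17, miR-205-y at 0.42 and miR-205-z at 0.15. The part of this list in the values of miR-222-y was not tested. miR-221-y was most like miR-20-x (0.0452), of the miR-17 family, then miR-731-x (0.0889) and miR-222-x (0.117). miR-222-x was most like miR-21-x (0.0855), miR-725-x (0.0951) and miR-462-x (0.106). miR-221-z was most like miR-100-x (0.0842), miR-22-z (0.0906) and miR-30-y (0.0922). miR-221-x had no entry nearer than miR-29-y (0.187), followed by miR-9226-x (0.219) and miR-187-x (0.227).

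Other miRNAs known from vessels of other vertebrates, miR-10, miR-23, miR-24, miR-27, miR-92, miR-130 and miR-218, had 19 tested entries. Of these 0 rose and 0 fell by edgeR with all 6 libraries. Their log2 fold changes were positive in 17, against 407 of all 834 tested miRNAs, and had a median of 0.26, against -0.03 over all tested. At a mean of at least 10 TPM 11 of 17 tested entries were positive, with a median of 0.04 against -0.12. With library totals alone 12 of the 19 were positive, with a median of 0.02 against -0.26. The median was 0.13 without WR replicate 1, where 15 were positive, and 0.11 without WR replicate 2, where that of all tested miRNAs was -0.14. Without WR replicate 1, miR-27-x, the 5p arm of miR-27, named after its values were seen, fell to 0.412-fold (edgeR adjusted p = 0.00136); over all 6 libraries its log2 fold change was -0.85 (edgeR adjusted p = 0.19). The 4 most abundant were miR-10-x of the Hox clusters (log2 fold change 0.15), miR-27-y (0.17), miR-92-y (0.25) and miR-23-y (0.37), with edgeR adjusted p from 0.254 to 0.823. The summed level of the list in deposited TPM was 105400, 124600 and 125500 in WR and 121200, 112000 and 112500 in YR. The groups overlapped through WR replicate 1 only, since WR replicates 2 and 3 were above every YR library. A positive median log2 fold change was not particular to this list. With all 6 libraries it was 0.24 for pigment cell (5 of 5 entries positive), 0.18 for skeletal muscle and 0.15 for white blood cell. It was 0.01 for red blood cell, -0.08 for smooth muscle and -0.24 for epidermis. The median over all tested miRNAs includes 40 imprinted-cluster entries, whose own median was -2.95.

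miRNAs that lower KIT in human cells, miR-34, miR-137, miR-193, miR-218 and miR-494, had 8 tested entries, of which 0 rose and 0 fell by edgeR with all 6 libraries. Their log2 fold changes were positive in 4 and negative in 4, with a median of 0.18, against -0.03 over all tested miRNAs. With library totals alone the median of the list was -0.06, against -0.26. One of the negative entries, miR-494-y (-2.68), is also among the imprinted-cluster names. With those names left out, 4 of 7 were positive with a median of 0.27, where that of all tested miRNAs was -0.11. Without WR replicate 1 the median of the KIT list was 0.34 with 6 positive, and it was 0.04 without WR replicate 2 and 0.10 without WR replicate 3. miR-193-y, the most abundant, averaged 204 ± 42.5 TPM (WR) and 227 ± 50.8 TPM (YR), and miR-218-x, which is on the vascular list too and in mammals acts on Slit and Robo signals, at 66.5 ± 0.993 and 82.7 ± 5.43 TPM (SD, n = 3 each; edgeR adjusted p = 0.229 and 0.132). miR-193-x was at 60.4 ± 14.4 and 50.0 ± 8.81 TPM, and miR-34-x, a target of p53 in mammals, at 58.8 ± 61.0 and 29.2 ± 16.1 TPM (SD, n = 3 each; edgeR adjusted p = 0.925 and 0.557). miR-222-y was 2.19 to 5.37 times as abundant as this whole list in WR and 2.38 to 3.33 times in YR.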

How the data were processed

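Counts per mature miRNA were used as the authors deposited them; the deposited TPM score per library, a count scaled by a library constant, gives levels (a count of 0 was set to 0). The authors' log2 fold change, p-value and adjusted p-value are quoted as deposited, and their test, the aligner, the database of known miRNAs, the build and the handling of multiple matches were not given in the sources used here. Here edgeR 4.0.16 (R 4.3.3) was run with TMM scaling on miRNAs that averaged 1 TPM or more, with Benjamini-Hochberg adjustment and a threshold of 0.05. Intervals use the SE, the log2 fold change over the root of F. Alternatives used limma 3.58.1, with pseudocounts of 1 and 0.1 TPM, and DESeq2 1.42.0. Ratios were tested by exact permutation. Arms were paired with RNAduplex (ViennaRNA 2.7.2). The steps were tested on simulated data, where most 4-fold changes but few 2-fold changes were called. An entry that was not called is therefore not shown to be equal between the groups. Replicates within a group differed beyond sampling noise (chi-square of 83.3 to 701 per degree of freedom). The miRNAs and lists were chosen with earlier results of these data known. Named miRNAs are all 8 entries, those sharing a seed, the 3 known miRNAs of nearest pattern for each, and the 4 most abundant and any called of 2 lists. Coordinates are left out, as no genome was used.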

Additional observations from a re-analysis of the deposited data

How the results depend on the processing

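miR-126-y stayed above 0 and uncalled in all 17 alternatives, with log2 fold changes of 0.24 to 0.56 (adjusted p 0.126 to 0.456). miR-222-y stayed below 0 in all 18 and was called in 1, without WR replicate 1; single libraries left out gave -0.50 to -0.063. The other tested entries gave 0 calls, or 1 (miR-222-x) without that library. The sign turned for miR-126-x with library totals alone (-0.066), a mean of at least 10 TPM (-0.043), and limma on log2(TPM + 1) and log2(TPM + 0.1) (-0.051 each). It turned for miR-221-y with upper-quartile scaling (0.016), with the replicate block (0.049) and, chosen after seeing the data, with y and z entries summed (0.073), and for miR-221-z with library totals alone (-0.0093), limma on log2(TPM + 1) and limma on log2(TPM + 0.1) (-0.013 each). Leaving out single libraries gave -0.0093 to 0.30 for miR-126-x, -0.45 to 0.24 for miR-221-y, -0.014 to 0.28 for miR-221-z and -0.48 to 0.063 for miR-222-x. For ratios to lists these ranges were -0.037 to 0.45 (miR-126-y to KIT), -0.060 to 0.81 (miR-126-y to smooth muscle), -0.82 to 0.22, -0.56 to 0.13 and -0.55 to 2.52 (miR-222-y to smooth muscle, red blood cell and imprinted-cluster names). The cause was not tested.

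Of all tested miRNAs 44 were called, against 24 with upper-quartile scaling, 16 with a mean of at least 10 TPM, 76 by DESeq2, 21 with 1 entry per distinct sequence, and 1 to 118 without single libraries (118 without WR replicate 1). With library totals alone 1 was higher and 29 lower, against 18 and 26. Replicate numbers are shared between groups, and no label says whether they pair the samples. Deviations of libraries with the same number correlated at 0.26, -0.104 and 0.27. WR replicates 1 and 3 correlated best with the YR library of their own number, and WR replicate 2 with YR replicate 3 (0.0979). Whether libraries of the same number share a batch was not tested. The replicate block gave 2 calls, neither of them one of these entries. Depth limits miR-221-x and miR-222-z, with 1 to 58 reads a library.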
